A study of Homo sapiens with 24 samples.

Results

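The genes described here are 10 human genes whose transcripts rise when misfolded protein builds up in the endoplasmic reticulum (ER): XBP1, HSPA5, HSP90B1, DNAJB9, SDF2L1, HERPUD1, PDIA4, CALR, HYOU1 and MANF. They were chosen by name, for their place in the XBP1 and ATF6 branches of the unfolded protein response as distinct from the amino acid stress response, with no measured value in the rule, though earlier results of these data were known when they were proposed. All 10 had a probe set of their own among the 19775 genes on the array and all 10 were among the 10971 genes with a measurable level. The data are gene expression arrays of 24 cultures of human leukemia cells, made to profile what inhibition of the histone methyltransferase DOT1L does to cells with a rearranged MLL gene. EPZ004777 is a small molecule that inhibits DOT1L, the enzyme that methylates histone H3 at lysine 79. The treated cultures received 3 uM EPZ004777 and the vehicle cultures 0.1% DMSO. MV4-11 cells, labelled as biphenotypic B myelomonocytic leukemia with an MLL-AF4 rearrangement and kept in IMDM medium, were sampled at days 2, 4 and 6. MOLM-13 cells, from an acute myeloid leukemia with an MLL-AF9 rearrangement and kept in RPMI medium, were sampled at day 6. Each of the 8 combinations of line, day and agent had 3 arrays, labelled as biological replicates. Both lines carry an MLL rearrangement, the vehicle cultures included, and each rearrangement is represented by a single cell line in its own medium. Line, rearrangement and medium therefore cannot be told apart.

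Proteins bound for the cell surface, the secretory pathway or the cell exterior fold in the ER with the help of chaperones, enzymes that form disulfide bonds, and a disposal route for what fails to fold. When unfolded protein accumulates, 3 sensors in the ER membrane respond. IRE1 (ERN1) splices XBP1 mRNA so that it encodes an active transcription factor, ATF6 is cut in the Golgi to release another, and PERK (EIF2AK3) slows translation while favouring the translation of ATF4. XBP1 and ATF6 raise the ER's own chaperones and disposal genes, whereas ATF4 raises amino acid synthesis and transport genes and also answers to amino acid shortage with no unfolded protein. These arrays measured total transcript and do not separate spliced from unspliced XBP1 mRNA.

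The deposited values were linear intensities, and every level below is the log2 of the intensity. A difference of 1 on this scale is a doubling, and the lowest value an array could show was 2.19. A change is the mean of treated arrays minus the mean of vehicle arrays, given with its standard error (SE). A gene was called higher or lower at an adjusted p under 0.05 in limma's fit over all 24 arrays, adjusted over the 10971 genes. As bulk cultures, the arrays cannot separate less transcript per cell from fewer cells that make it. Of 11 measured markers of myelomonocytic cells, 10 stood at or over log2 4 in all arrays of each group, and 11 did in treated MOLM-13 cultures. Of 7 B-lymphoid markers 1 or 2 did so, of 6 T and NK markers 1 or 2, and of 4 erythroid markers 1. Plasma cells make much XBP1, and of 7 plasma cell markers 2 reached that level in MV4-11 cultures (IRF4 and PRDM1) and 0 in MOLM-13 cultures, while SDC1 averaged at most 2.48 in any group. The summed log2 level of the 7 was 30.1 to 30.7 in treated and 26.1 to 26.3 in vehicle MV4-11 cultures at day 6, where PRDM1 averaged 8.53 and 4.43, and its part in the results was not tested. The difference between 3' and 5' control probe sets, which grows as RNA is shortened, was 2.10 to 2.84 in treated and 0.954 to 1.15 in vehicle MOLM-13 arrays. It was 0.826, 0.861 and 1.91 in the day 6 treated MV4-11 arrays, the last being replicate 3, and 0.567 to 0.583 in their vehicle arrays. Results at day 6 are therefore given also with this difference as a covariate, and without that replicate, where the call changes. Treated and vehicle arrays did not overlap in this difference at day 6 in either line. Nor did they at days 2 and 4 of MV4-11 cells, where it was lower in the treated arrays. It was 0.525 to 0.574 in treated and 0.641 to 0.676 in vehicle arrays at day 2. At day 4 it was 0.590 to 0.668 and 0.695 to 0.817. The fit with the covariate therefore cannot tell it from the treatment in any of the 4 comparisons.

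Sequences that the ER stress factors are known to bind were looked for in the promoters of the 10 genes, since 9 of them fell together at day 4 of treatment. The windows were 300 bases long, with 250 before the start of transcription and 50 from it on, and came from RefSeq's table for GRCh38.p14, which held all 10 genes with 12 promoters. The ER stress response element ERSE (CCAAT, any 9 bases, then CCACG), known to bind NF-Y and ATF6, was searched on both strands. So were ERSE-II (ATTGG, any 1 base, then CCACG), the unfolded protein response element UPRE (TGACGTGG), which XBP1 binds, and the amino acid response element CARE (TGATGCAA), which ATF4 binds. ERSE was found in 4 of the 10 genes (XBP1, HSPA5, HSP90B1 and CALR) with 5 matches, and ERSE-II in 3 (SDF2L1, HERPUD1 and HYOU1) with 4 matches, so that 7 of 10 held 1 or the other. Among all 35116 promoters in RefSeq's list, 0.0769% held ERSE and 0.0541% ERSE-II. Both figures were low among the 13079 promoters of tested genes too, at 0.138% and 0.0994%. UPRE was in the HYOU1 promoter (0.729% of all promoters) and CARE in the HERPUD1 promoter (0.866%). No match was found in these windows of DNAJB9, PDIA4 and MANF. Each match of ERSE, ERSE-II and UPRE is shown with the 20 bases on either side, 5′ to 3′ on the strand of the gene and with the motif in capitals.
XBP1, 52 bases before the start, minus strand of chr22:28800583-28800641: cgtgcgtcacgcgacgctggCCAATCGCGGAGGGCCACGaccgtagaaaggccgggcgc
HSPA5, 66 bases before the start, minus strand of chr9:125241371-125241429: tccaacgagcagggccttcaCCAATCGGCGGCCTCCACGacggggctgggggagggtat
HSP90B1, 194 bases before the start, plus strand of chr12:103930196-103930254: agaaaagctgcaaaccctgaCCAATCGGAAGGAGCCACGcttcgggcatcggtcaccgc
HSP90B1, 89 bases before the start with ERSE on the other strand, plus strand of chr12:103930301-103930359: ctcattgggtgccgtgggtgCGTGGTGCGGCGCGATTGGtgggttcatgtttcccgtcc
CALR, 225 bases before the start with ERSE on the other strand, plus strand of chr19:12938364-12938422: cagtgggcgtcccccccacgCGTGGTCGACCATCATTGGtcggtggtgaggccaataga
SDF2L1, 188 bases before the start with ERSE-II on the other strand, plus strand of chr22:21642094-21642144: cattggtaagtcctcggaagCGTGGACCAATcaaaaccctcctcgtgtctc
HERPUD1, 117 bases before the start, plus strand of chr16:56932005-56932055: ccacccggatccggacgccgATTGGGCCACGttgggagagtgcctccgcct
HYOU1, 188 bases before the start, where UPRE overlaps ERSE-II on the other strand, minus strand of chr11:119057360-119057413: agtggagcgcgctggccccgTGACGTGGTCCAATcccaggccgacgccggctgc
HYOU1, 79 bases before the start with ERSE-II on the other strand, minus strand of chr11:119057254-119057304: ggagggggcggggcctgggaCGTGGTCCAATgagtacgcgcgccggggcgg
The 10 genes were chosen for their place in the branches that act through these elements. A share above that of all promoters was therefore built into the choice, and it does not bear on the fall at day 4. A match describes these letters and does not show that a factor was bound in these cells.

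XBP1, the transcription factor of the IRE1 branch, had the largest fall of the 10 genes in each of the 4 comparisons, by the probe sets of highest mean. At day 4 DNAJB9 (-1.25 ± 0.15) was level with it within the errors. A second XBP1 probe set gave -1.11 at day 4 and -0.90 in MOLM-13 cells. Other DNAJB9 probe sets fell more there, by -2.17 and -1.37 at day 4 and by -1.23 and -1.70 in MOLM-13 cells. XBP1 (Entrez 7494) lies at chr22:28794560-28800569 (GRCh38.p14) and was read by probe set 200670_at. In MV4-11 cells at day 2 its level was 11.31, 11.30 and 11.18 in treated cultures, against 11.85, 11.61 and 11.98 in vehicle cultures. At day 4 it was 11.04, 10.83 and 10.73 in treated cultures, against 11.92, 12.17 and 12.29 in vehicle cultures. At day 6 it was 10.52, 10.39 and 10.19 in treated cultures, against 12.0, 12.09 and 11.87 in vehicle cultures. No treated array reached a vehicle array at any day, and the treated arrays of each later day lay below those of the day before. In MOLM-13 cells at day 6 the level was 10.21, 9.76 and 10.00 in treated cultures, against 11.92, 11.87 and 11.72 in vehicle cultures, again with no overlap. XBP1 fell by 0.55 ± 0.12 at day 2 (1.46-fold lower, adjusted p = 0.005615) and by 1.27 ± 0.12 at day 4 (2.41-fold lower, adjusted p = 8.208e-08). It fell by 1.63 ± 0.12 at day 6 (3.09-fold lower, 95% interval -1.87 to -1.38, adjusted p = 1.319e-09) and by 1.84 ± 0.12 in MOLM-13 cells (3.59-fold lower, 95% interval -2.09 to -1.60, adjusted p = 2.408e-10). Counted from the largest fall, it ranked 89 at day 2, 206 at day 4, 111 at day 6 and 115 in MOLM-13 cells among the 10971 genes. Its vehicle levels were close across days and lines: the 4 vehicle means ran from 11.81 to 12.13 and their arrays overlapped, while treated means stood at 11.26, 10.86, 10.36 and 9.99. XBP1 was called lower in all 4 comparisons under every alternative run, with changes of -0.78 to -0.47 at day 2, -1.37 to -1.04 at day 4, -1.70 to -0.96 at day 6 and -1.96 to -0.90 in MOLM-13 cells.

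**Figure D1:**
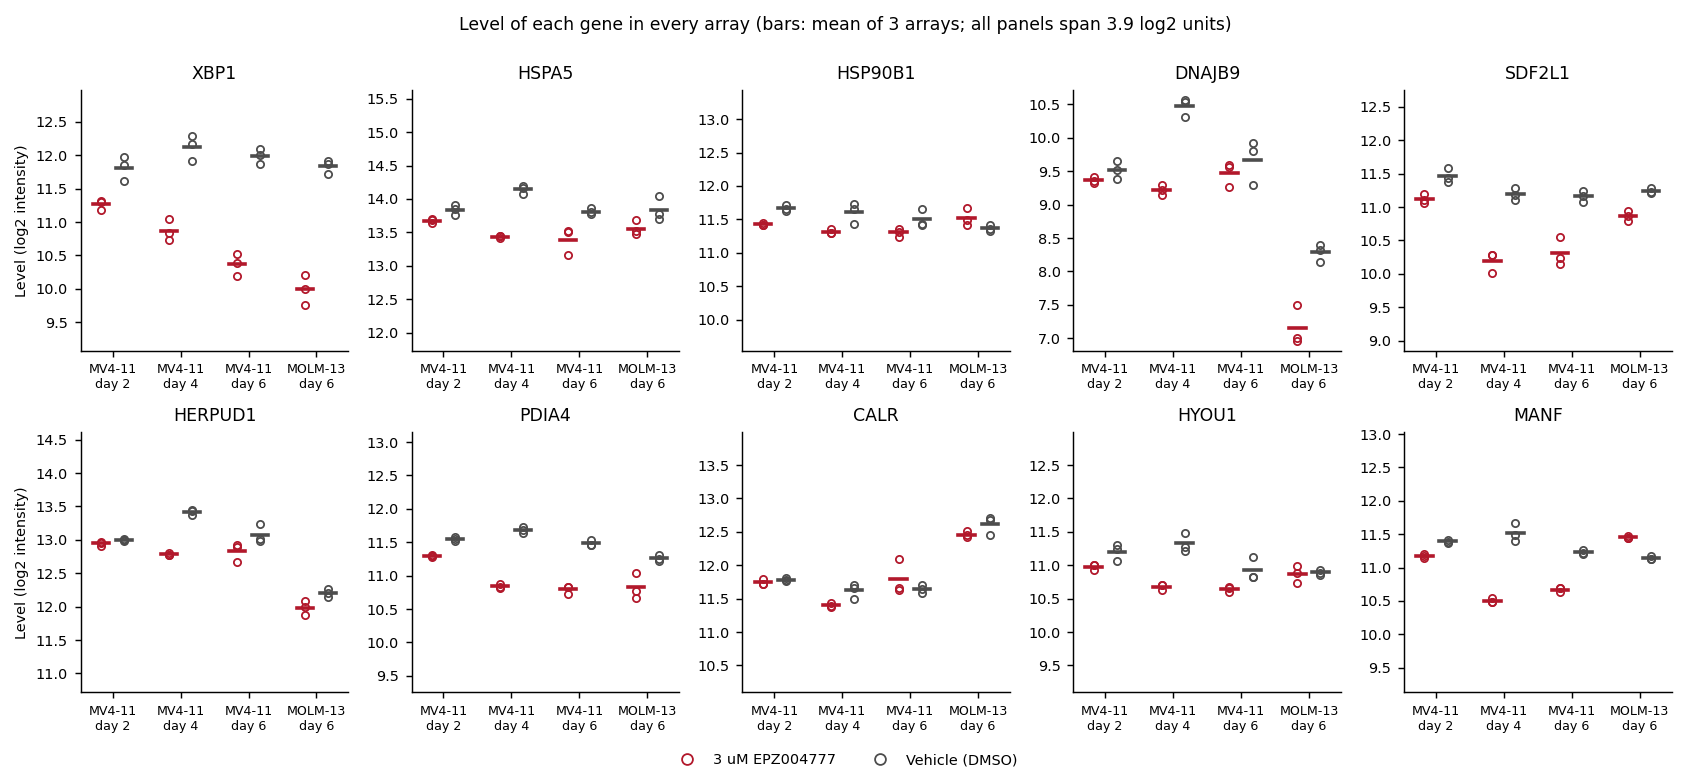
Level (log2 intensity) of each of the 10 genes in every array, with 1 panel a gene, treated (red) left of vehicle (grey) in each of the 4 pairs of groups, bars at the mean of 3 arrays, and all panels spanning 3.9 log2 units at their own height. XBP1 is lower in all treated arrays of each pair, the day 4 vehicle arrays of DNAJB9 stand at 10.31 to 10.57, and MANF is lower in treated MV4-11 arrays but higher in treated MOLM-13 arrays.

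The abundant ATP-driven chaperones of the ER fell less than XBP1. HSPA5 (BiP, Entrez 3309, chr9:125234853-125241343, probe set 211936_at) is the ER's Hsp70 chaperone and holds the 3 sensors inactive while it is free to bind them. At day 4 its level was 13.45, 13.44 and 13.42 in treated cultures, against 14.17, 14.07 and 14.20 in vehicle cultures, with no overlap. It fell by 0.71 ± 0.09 there (1.64-fold lower, adjusted p = 2.469e-06). The fall was 0.42 ± 0.09 at day 6 (adjusted p = 5.23e-04) and 0.28 ± 0.09 in MOLM-13 cells (adjusted p = 0.01161), and the change of -0.17 ± 0.09 at day 2 was not called (adjusted p = 0.285). In MOLM-13 cells the change of HSPA5 was 0.05 with the 3' to 5' difference as a covariate (adjusted p = 0.803), and a second probe set of HSPA5, described below, did not fall at any day.

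HYOU1 (Entrez 10525, chr11:119044188-119057205, probe set 200825_s_at), a large Hsp70-like protein that exchanges the nucleotide of HSPA5, fell at days 4 and 6 of MV4-11 cells. At day 4 its level was 10.63, 10.70 and 10.71 in treated cultures, against 11.49, 11.28 and 11.21 in vehicle cultures. The groups did not overlap, and the change was -0.64 ± 0.09 (adjusted p = 4.98e-06). At day 6 the change was -0.28 ± 0.09 (adjusted p = 0.009323) and the levels were 10.68, 10.60 and 10.66 in treated cultures, against 10.82, 10.83 and 11.13 in vehicle cultures. The day 6 call was lost with the covariate (-0.22, adjusted p = 0.0833) and without replicate 3 of the vehicle cultures (-0.18, adjusted p = 0.082). HYOU1 was not called in MOLM-13 cells, where the change was -0.02 ± 0.09 with a 95% interval of -0.194 to 0.146 and the groups overlapped, and 0.09 and 0.06 with the arrays quantile normalized again or set to a common median.

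HSP90B1 (GRP94, Entrez 7184, chr12:103930410-103947926, probe set 216449_x_at), the Hsp90 of the ER, had the smallest changes among the genes called at days 4 and 6, by this probe set. A second, 216450_x_at, gave -0.50 at day 4 (adjusted p = 0.1931) and -0.95 at day 6 (adjusted p = 0.008869). Other probe sets that list it beside a second gene were not used. At day 4 its level was 11.29, 11.30 and 11.36 in treated cultures, against 11.66, 11.43 and 11.73 in vehicle cultures, a change of -0.29 ± 0.08 (adjusted p = 0.004238). At day 6 it was -0.20 ± 0.08 (adjusted p = 0.03174), and the call was lost without replicate 2 (-0.20) or 3 (-0.17) of the treated or replicate 1 (-0.12) of the vehicle cultures (adjusted p = 0.0588, 0.102 and 0.195). It was lost with the covariate too (-0.22, adjusted p = 0.0592). The change of 0.16 ± 0.08 in MOLM-13 cells was not called (adjusted p = 0.07115), but it was with the arrays quantile normalized again (0.29, adjusted p = 0.00305) or set to a common median (0.25, adjusted p = 0.0105). Over the 8 groups the means of HSP90B1 ran only from 11.30 in day 6 treated to 11.66 in day 2 vehicle MV4-11 cultures, and each group overlapped its neighbour in that order. The suffix x in this probe set's name is the maker's mark for probes that may also bind other transcripts.

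The co-chaperones of HSPA5 moved more widely. DNAJB9 (ERdj4, Entrez 4189, chr7:108569874-108574850, probe set 202842_s_at) is a J-domain protein that XBP1 is known to raise and that brings HSPA5 to IRE1. In MV4-11 cells at day 2 its level was 9.33, 9.35 and 9.41 in treated cultures, against 9.65, 9.52 and 9.39 in vehicle cultures. At day 4 it was 9.22, 9.14 and 9.29 in treated cultures, against 10.57, 10.31 and 10.54 in vehicle cultures. At day 6 it was 9.59, 9.56 and 9.27 in treated cultures, against 9.92, 9.80 and 9.30 in vehicle cultures. Only the day 4 groups were apart, and there the vehicle arrays stood above those of days 2 and 6. The change at day 4 was -1.25 ± 0.15 (2.38-fold lower, adjusted p = 8.338e-07), while those of day 2 (-0.16 ± 0.15, adjusted p = 0.5896) and day 6 (-0.20 ± 0.15, adjusted p = 0.2505) were not called. Without replicate 3 of the day 6 vehicle cultures the day 6 change was -0.38 (adjusted p = 0.023). In MOLM-13 cells the level was 7.50, 6.96 and 7.01 in treated cultures, against 8.40, 8.32 and 8.14 in vehicle cultures, a change of -1.13 ± 0.15 (2.19-fold lower, adjusted p = 1.45e-06), or -0.63 with the covariate (adjusted p = 0.0459).

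SDF2L1 (Entrez 23753, chr22:21642302-21644299, probe set 218681_s_at), which works with J-domain proteins and HSPA5 to keep substrates soluble, was lower at each day. At day 2 its level was 11.20, 11.06 and 11.10 in treated cultures, against 11.43, 11.59 and 11.37 in vehicle cultures. At day 4 it was 10.01, 10.28 and 10.28 in treated cultures, against 11.29, 11.18 and 11.10 in vehicle cultures. At day 6 it was 10.23, 10.14 and 10.55 in treated cultures, against 11.08, 11.17 and 11.24 in vehicle cultures. The treated and vehicle groups were apart at all 3 days, with vehicle levels that moved little. SDF2L1 fell by 0.35 ± 0.10 at day 2 (adjusted p = 0.02138), by 1.00 ± 0.10 at day 4 (2.00-fold lower, adjusted p = 6.166e-08) and by 0.85 ± 0.10 at day 6 (adjusted p = 2.639e-07). In MOLM-13 cells it fell by 0.37 ± 0.10 (adjusted p = 0.002007), with levels of 10.94, 10.79 and 10.86 in treated cultures against 11.29, 11.21 and 11.22 in vehicle cultures. The day 2 call was lost without replicate 2 or 3 of the treated or replicate 2 of the vehicle cultures (adjusted p = 0.0874, 0.0698 and 0.107).

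By the probe set of highest mean, PDIA4 was called lower in all 4 comparisons and CALR in 0, and a second PDIA4 probe set was not called in MOLM-13 cells (0.09, adjusted p = 0.4282). PDIA4 (ERp72, Entrez 9601, chr7:149003051-149028505, probe set 211048_s_at) is a protein disulfide isomerase. At day 4 its level was 10.88, 10.83 and 10.82 in treated cultures, against 11.73, 11.64 and 11.68 in vehicle cultures, and at day 6 it was 10.72, 10.83 and 10.83 in treated cultures, against 11.46, 11.46 and 11.53 in vehicle cultures. These groups were far apart for the small spread within each. The changes were -0.25 ± 0.07 at day 2 (adjusted p = 0.01664), -0.84 ± 0.07 at day 4 (adjusted p = 5.385e-09), -0.69 ± 0.07 at day 6 (adjusted p = 3.885e-08) and -0.44 ± 0.07 in MOLM-13 cells (adjusted p = 1.242e-05). The day 2 call did not survive leaving out replicate 2 or 3 of the treated or replicate 1 or 3 of the vehicle cultures (adjusted p = 0.0546, 0.0537, 0.0503 and 0.0603).

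CALR (calreticulin, Entrez 811, chr19:12938609-12944489, probe set 212953_x_at) binds glycoproteins and calcium in the ER. Its level at day 4 was 11.38, 11.39 and 11.43 in treated cultures, against 11.66, 11.71 and 11.50 in vehicle cultures. The groups did not overlap, but the change of -0.22 ± 0.09 was not called (adjusted p = 0.05786), though it was without replicate 3 of the vehicle cultures (-0.28, adjusted p = 0.034). CALR was also called lower at day 4 with only the arrays compared (adjusted p = 0.031), with a trend and robust prior (0.041), with a common median (0.0336), with the mean of its probe sets (4.94e-05) and with its second probe set (0.0453). At day 6 the levels were 11.66, 11.63 and 12.10 in treated cultures, against 11.65, 11.59 and 11.70 in vehicle cultures, where replicate 3 of the treated cultures stood alone. The other changes were -0.04 at day 2, 0.15 at day 6 (0.00 without that replicate) and -0.15 in MOLM-13 cells, with 95% intervals of -0.222 to 0.145, -0.0329 to 0.334 and -0.337 to 0.0297. CALR was called without replicate 2 of the day 6 treated MV4-11 cultures (0.23, adjusted p = 0.0495) or replicate 1 of the vehicle MOLM-13 cultures (-0.23, adjusted p = 0.0487), and its values depended on the probe set, as given below.

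HERPUD1 and MANF stand for disposal and for secreted protection. HERPUD1 (Entrez 9709, chr16:56932142-56944864, probe set 217168_s_at) is a membrane protein of ER-associated degradation. At day 4 its level was 12.78, 12.77 and 12.81 in treated cultures, against 13.38, 13.43 and 13.45 in vehicle cultures, a fall of 0.64 ± 0.07 (adjusted p = 5.241e-07). At day 6 it was 12.89, 12.93 and 12.67 in treated cultures, against 13.24, 13.01 and 12.99 in vehicle cultures, a fall of 0.25 ± 0.07 (adjusted p = 0.00466). The vehicle arrays of day 4 stood above those of days 2 and 6, as for DNAJB9. The change at day 2 was -0.06 ± 0.07 (adjusted p = 0.7241), and the fall of 0.22 ± 0.07 in MOLM-13 cells (adjusted p = 0.01025) became a change of 0.01 with the covariate. The day 6 call of HERPUD1 was lost with it as well (-0.14, adjusted p = 0.127).

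MANF (Entrez 7873, chr3:51385291-51389397, probe set 202655_at), an ER-resident protein that is secreted under stress and protects cells, was called lower in MV4-11 and higher in MOLM-13 cells. HSP90B1 had changes of opposite sign in the lines at day 6 as well, but its MOLM-13 change (0.16) was not called, and was -0.09 with the second probe set. In MV4-11 cells at day 4 the level of MANF was 10.49, 10.54 and 10.49 in treated cultures, against 11.67, 11.40 and 11.49 in vehicle cultures. At day 6 it was 10.69, 10.63 and 10.69 in treated cultures, against 11.21, 11.27 and 11.22 in vehicle cultures. In MOLM-13 cells it was 11.44, 11.45 and 11.48 in treated cultures, against 11.18, 11.13 and 11.13 in vehicle cultures. The treated arrays were thus below the vehicle arrays in MV4-11 cells and above them in MOLM-13 cells, with no overlap in either line. MANF fell by 0.23 ± 0.05 at day 2 (adjusted p = 0.008633), by 1.02 ± 0.05 at day 4 (2.02-fold lower, adjusted p = 1.305e-11) and by 0.56 ± 0.05 at day 6 (adjusted p = 3.267e-08). It rose by 0.31 ± 0.05 in MOLM-13 cells (1.24-fold higher, adjusted p = 5.278e-05), and by 0.30 with the covariate (adjusted p = 0.0188). Under each of the alternatives run, the direction of MANF held in both lines.

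Over the 10 genes, the median change in MV4-11 cells was -0.225 at day 2, -0.777 at day 4 and -0.348 at day 6. At day 2, 4 of 10 were called lower and 0 higher, where 3.68% of all tested genes were called lower and 8.82% higher. The 4 were XBP1, SDF2L1, PDIA4 and MANF, the median change of all tested genes was 0.0163, and the arrays of 8 did not overlap (15.4% of tested genes did so downward). At day 4, 9 of 10 were called lower, all but CALR, where 21.0% of all genes were called lower and 25.2% higher. The median change of all genes was 0.0125, and the arrays of all 10 genes were apart, against 27.4% of tested genes downward. At day 6, 8 of 10 were called lower, all but DNAJB9 and CALR, where 28.4% of all genes were called lower and 33.6% higher. The median change of all genes was 0.0352, and the arrays of the 8 called genes were apart (29.6% of tested genes downward). Of the 10 genes, 5 were called when the fit used only the arrays of the comparison. With the 3' to 5' difference as a covariate 5 were called too, namely XBP1, HSPA5, SDF2L1, PDIA4 and MANF. With the mean of probe sets, 9 were lower and 1 higher at day 6 and 9 lower at day 4, so the order of the counts of days 4 and 6 was not settled. Quantile normalization again left 6 lower and 1 higher at day 6, since HSP90B1 (-0.09) and HERPUD1 (-0.14) lost their calls and CALR was called higher (0.27, adjusted p = 0.0299). With a common median, 3176 of all genes were higher and 3707 lower at day 6, against 3688 and 3112. The summed log2 level of the 11 myelomonocytic markers was 104.1 to 105.3 in treated and 100.4 to 102.1 in vehicle MV4-11 cultures at day 2, 108.9 to 109.1 and 104.3 to 104.6 at day 4, and 108.9 to 109.8 and 102.8 to 103.6 at day 6. Of the 11 markers 8 were called higher and 1 lower at day 6, where FLT3 averaged 11.13 in treated and 12.39 in vehicle cultures. The part of these markers in the changes was not tested.

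In MOLM-13 cells at day 6, 6 of the 10 were called lower and MANF was called higher, where 36.5% of all genes were called lower and 29.3% higher. Over all genes, 3211 were higher and 4003 lower, but 3846 and 3450 with a common median and 3828 and 3386 quantile normalized again. The median change was -0.25 against -0.0259 for all genes. The arrays of the same 7 genes were apart, against 37.4% of tested genes downward and 30.9% upward. With the arrays quantile normalized again or set to a common median, HSPA5 and HERPUD1 lost their calls and HSP90B1 was called higher, which left 4 lower and 2 higher. The call of HSPA5 was also lost without replicate 3 of the treated (-0.23) or replicate 1 of the vehicle cultures (-0.17), and that of HERPUD1 without replicate 3 of the treated cultures (-0.17), with adjusted p of 0.0528, 0.099 and 0.0607. HSP90B1 was called higher without replicate 1 of the treated cultures (0.22, adjusted p = 0.0298). XBP1, DNAJB9, SDF2L1 and PDIA4 were called lower under both, and also with the covariate, where CALR was called lower too (-0.50, adjusted p = 0.0109). In these cultures the summed log2 level of the 11 myelomonocytic markers was 119.2 to 120.1 in treated and 111.5 to 112.6 in vehicle arrays. Of them 6 were called higher and 1 lower, and FLT3 averaged 10.01 in treated and 12.06 in vehicle arrays. The sum of the 6 T and NK markers was 27.7 to 28.1 and 22.7 to 25.0. Among these CD3D averaged 8.12 and 5.38 and NKG7 10.48 and 9.97, and the others at most 2.56. The part of these markers in the changes was not tested.

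**Figure D2:**
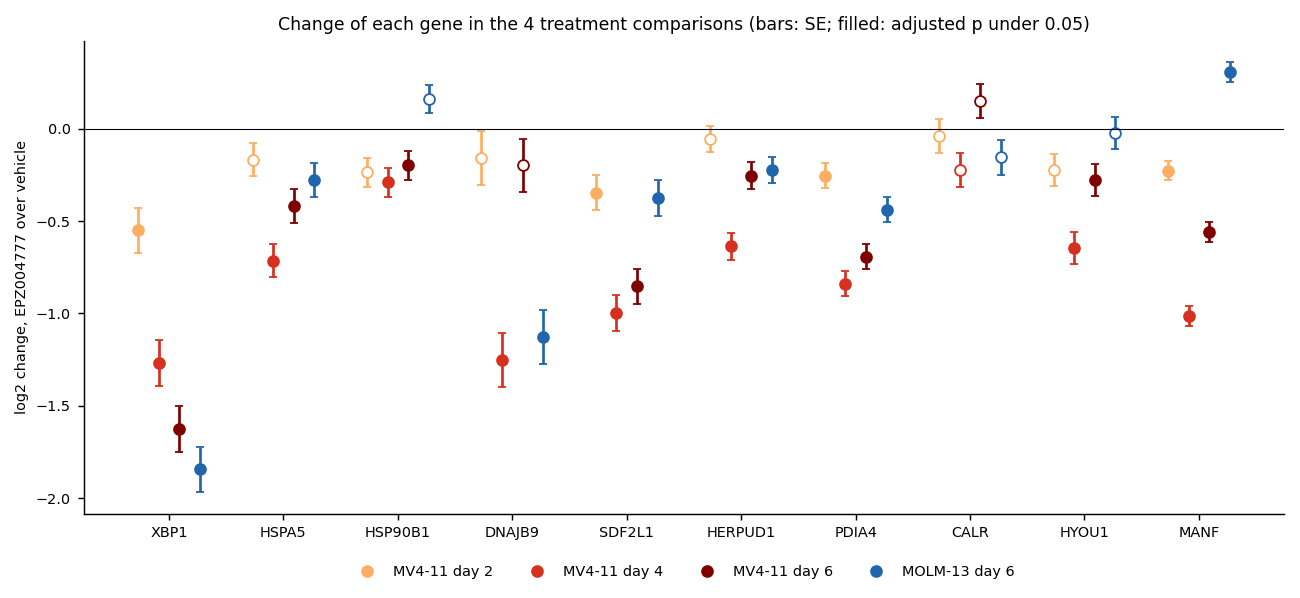
Change (log2, EPZ004777 over vehicle) of each gene at days 2, 4 and 6 in MV4-11 cells and at day 6 in MOLM-13 cells, with bars for the SE and filled points for an adjusted p under 0.05. XBP1 stands at -0.55, -1.27 and -1.63 at days 2, 4 and 6 and at -1.84 in MOLM-13 cells, most other genes are lowest at day 4, and MANF is at 0.31 in MOLM-13 cells.

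The differences between days were tested directly. From day 2 to day 4 the treatment effect became lower for 8 of the 10 genes, where 7.77% of all genes became lower and 7.22% higher. The largest differences were those of DNAJB9 (-1.10, adjusted p = 0.001066), MANF (-0.79, adjusted p = 7.45e-07) and XBP1 (-0.72, adjusted p = 0.008225), and HSP90B1 and CALR were not called. From day 4 to day 6 the effect became higher, that is less negative, for 5 of 10, where 13.9% of all genes became higher and 11.9% lower (1263 higher and 1710 lower with the arrays at a common median, against 1522 and 1302). These 5 were DNAJB9 (1.06, adjusted p = 0.001359), MANF (0.46, adjusted p = 3.594e-04), HERPUD1 (0.38, adjusted p = 0.01012), HYOU1 (0.37, adjusted p = 0.03422) and CALR (0.37, adjusted p = 0.04406). XBP1 was the only member with a negative difference there, and it was not called (-0.36, adjusted p = 0.1399). Both differences use the day 4 arrays, with opposite sign, and so are not independent.

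The vehicle cultures themselves differed at day 4. Against the mean of the day 2 and day 6 vehicle arrays, 6 of the 10 genes were higher in the day 4 vehicle arrays, where 13.4% of all genes were higher and 15.2% lower. They were DNAJB9 (0.88 ± 0.13, adjusted p = 5.598e-05), HERPUD1 (0.38, adjusted p = 1.665e-04), HSPA5 (0.33, adjusted p = 0.004271), HYOU1 (0.26, adjusted p = 0.01354), MANF (0.21, adjusted p = 0.002555) and PDIA4 (0.17, adjusted p = 0.03768). XBP1 (0.23, adjusted p = 0.1187) and SDF2L1 (-0.13, adjusted p = 0.2837) were not called. The day 4 treated arrays were therefore also set against the vehicle arrays of days 2 and 6. All 10 genes were then called lower, CALR included (-0.31, adjusted p = 0.00266), where 28.0% of all genes were, and the groups of all 10 were apart (26.8% of tested genes downward). The sizes differed from those at day 4: DNAJB9 was at -0.38 against -1.25, HERPUD1 at -0.25 against -0.64, HSPA5 at -0.39 against -0.71 and HYOU1 at -0.38 against -0.64. XBP1 (-1.04 against -1.27), SDF2L1 (-1.12 against -1.0), PDIA4 (-0.67 against -0.84) and MANF (-0.81 against -1.02) moved by less. Both comparisons use the same treated arrays. What set the day 4 vehicle cultures apart was not tested.

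Over time within the treated cultures, 6 of the 10 genes were lower at day 6 than at day 2, where 26.0% of all genes were lower and 29.7% higher. XBP1 fell most (-0.90, adjusted p = 5.699e-06), followed by SDF2L1 (-0.81), PDIA4 (-0.50), MANF (-0.50), HYOU1 (-0.33) and HSPA5 (-0.28). DNAJB9 (0.11), HERPUD1 (-0.12), HSP90B1 (-0.13) and CALR (0.05) were not called. Between the days, 7 of the 10 genes were lower in treated cultures at day 4 than at day 2 (20.0% of all genes were), among them SDF2L1 (-0.93, adjusted p = 4.673e-07), MANF (-0.66, adjusted p = 2.794e-08) and XBP1 (-0.40, adjusted p = 0.01531). From day 4 to day 6 XBP1 alone was lower again (-0.50, adjusted p = 0.007242), where 9.89% of all genes were lower, and CALR (0.39, adjusted p = 0.005362) and MANF (0.17, adjusted p = 0.03227) were higher, where 14.0% were.

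Between the lines the effects differed at day 6 for 5 of the 10 genes, near the share of all genes (52.0%). The treatment effect in MOLM-13 cells was higher than that in MV4-11 cells for MANF (0.87, adjusted p = 2.397e-08), SDF2L1 (0.48, adjusted p = 0.006111), HSP90B1 (0.36, adjusted p = 0.009501) and PDIA4 (0.26, adjusted p = 0.03132), and lower for DNAJB9 (-0.93, adjusted p = 9.412e-04). Among all genes 19.4% were higher and 32.7% lower. Setting the arrays to a common median moved every such difference by 0.16 upward and gave 3201 genes higher and 2597 lower, against 2123 and 3586, and the 5 members kept their direction. The effect on XBP1 did not differ beyond its error between lines (-0.22, adjusted p = 0.3093). In vehicle cultures at day 6, CALR was higher in MOLM-13 than in MV4-11 cells (0.97, adjusted p = 2.156e-08), where 30.7% of all genes were. DNAJB9 (-1.39, adjusted p = 7.866e-08), HERPUD1 (-0.87, adjusted p = 1.885e-09) and PDIA4 (-0.22, adjusted p = 0.007518) were lower, where 33.0% of all genes were, and XBP1 and HSPA5 were not called (-0.15 and 0.03).

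The order of the group means differed from gene to gene. XBP1 had the 4 vehicle groups on top and the 4 treated groups below them, from 12.13 ± 0.19 in day 4 vehicle MV4-11 cultures (SD, n = 3) down to 10.36 ± 0.17 in day 6 treated MV4-11 and 9.99 ± 0.23 in treated MOLM-13 cultures, the last pair overlapping. HSPA5 had the vehicle means above the treated means as well, from 14.15 ± 0.07 in day 4 vehicle to 13.39 ± 0.20 in day 6 treated MV4-11 cultures. The other 3 vehicle groups of HSPA5 overlapped each other. DNAJB9 and HERPUD1 were ordered by line first, with treated MOLM-13 cultures lowest (7.16 ± 0.29 and 11.98 ± 0.10), vehicle MOLM-13 cultures next (8.29 ± 0.13 and 12.21 ± 0.06), and all MV4-11 groups above. CALR was ordered the other way, with treated (12.46 ± 0.05) and vehicle (12.61 ± 0.14) MOLM-13 cultures above all MV4-11 groups and overlapping each other. MANF in treated MOLM-13 cultures (11.46 ± 0.02) stood second only to day 4 vehicle MV4-11 cultures (11.52 ± 0.14), which it overlapped. In SDF2L1 the lowest groups were day 6 (10.31 ± 0.22) and day 4 (10.19 ± 0.16) treated MV4-11 cultures, which overlapped, in PDIA4 the day 4 and day 6 treated MV4-11 and the treated MOLM-13 cultures (10.79 to 10.84), and in HYOU1 day 4 (10.68 ± 0.04) and day 6 (10.65 ± 0.04) treated MV4-11 cultures. The range of the 8 means was 3.32 for DNAJB9 and 2.14 for XBP1 and between 0.363 and 1.44 for the others, beside pooled SDs of 0.0547 (MANF) to 0.19 (DNAJB9).

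Other genes of ER protein handling were taken from lists chosen by role, and their counts stand beside the shares of all genes called lower and higher, which were 3.68% and 8.82% at day 2, 21.0% and 25.2% at day 4, 28.4% and 33.6% at day 6, and 36.5% and 29.3% in MOLM-13 cells. Of 26 other ER folding genes, 16 were lower and 3 higher at day 4 (median -0.293), 12 and 6 at day 6 (-0.144) and 11 and 6 in MOLM-13 cells (-0.0185), after 2 and 1 at day 2. These were 61.5% lower at day 4, 46.2% at day 6 and 42.3% in MOLM-13 cells, the last near the share of all genes. P4HB, the main disulfide isomerase, was at 0.01 in both day 6 comparisons and was not called at any day. PDIA6 was lower at days 4 and 6 (-0.25 and -0.30) and in MOLM-13 cells (-0.69). DNAJC3, an HSPA5 co-chaperone that inhibits PERK, was lower at days 2, 4 and 6 (-0.33, -0.79 and -0.24) and higher in MOLM-13 cells (0.24, adjusted p = 0.002453), the same directions as MANF. DNAJB11 was lower at day 4 (-0.48), day 6 (-0.67) and in MOLM-13 cells (-0.38), and the lectin chaperone CANX in MOLM-13 cells (-0.47). CRELD2 was lower at days 2, 4 and 6 (-0.20, -0.76 and -0.18) and not called in MOLM-13 cells (0.12). The day 4 vehicle levels of DNAJC3 and CRELD2 were 0.47 and 0.25 above those of days 2 and 6. Against those their day 4 changes were -0.32 and -0.51, still called lower. In that comparison 16 of the 26 folding genes were lower and 5 higher (median -0.238), where 28.0% of all genes were lower and 29.1% higher.

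Of 20 genes of ER-associated degradation, 12 were lower and 2 higher at day 4 (median -0.278), 9 and 3 at day 6 (-0.152) and 9 and 3 in MOLM-13 cells (-0.131), so that 45.0% were lower at day 6, against 28.4% of all genes, and 45.0% in MOLM-13 cells, against 36.5%. EDEM1, which delivers misfolded glycoproteins to that route and is a target of XBP1, was lower in all 4 comparisons (-0.43, -1.03, -0.69 and -1.39, adjusted p = 0.0268 to 1.168e-08). DERL2 was lower at days 4 and 6 (-0.61 and -0.59) and not called in MOLM-13 cells (0.09), and SEL1L was lower at day 4 (-0.27) and in MOLM-13 cells (-0.20). The day 4 vehicle level of SEL1L was 0.38 above that of days 2 and 6, and against those its day 4 change was 0.10 and not called. EDEM1 (-0.72) and DERL2 (-0.38) were lower at day 4 against them too. Of 32 genes of translocation and export, 20 were lower and 1 higher at day 4 (median -0.267), 14 and 5 at day 6 (-0.125) and 17 and 4 in MOLM-13 cells (-0.262), so that 62.5%, 43.8% and 53.1% were lower against the same shares of all genes. SEC24D, a cargo subunit of the export coat, was lower at day 4 (-1.28, adjusted p = 1.265e-04) and in MOLM-13 cells (-1.02, adjusted p = 6.455e-04). Its day 4 vehicle level was 0.89 above that of the other vehicle arrays. Against those its day 4 change was -0.39 and was not called (adjusted p = 0.1035). SEC61B was lower at days 4 and 6 (-0.31 and -0.37) and in MOLM-13 cells (-0.26). SSR1 was lower at day 4 (-0.23) but was not called against the vehicle arrays of days 2 and 6 (-0.13). Neither was SSR1 called at day 6 (0.02) or in MOLM-13 cells (0.16). SYVN1 and KDELR2 had no probe set of their own here and were not analysed.

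Of 12 sensors and transducers, 5 were lower and 2 higher at day 4 (median -0.233), 5 and 3 at day 6 (-0.0621) and 6 and 2 in MOLM-13 cells (-0.412). The share lower was 41.7% at days 4 and 6, against 21.0% and 28.4% of all genes, and 25.0% were higher at day 6, against 33.6%. With the day 4 treated arrays set against the vehicle arrays of days 2 and 6, 3 of the 12 were lower and 2 higher (median -0.0646). That was 25.0% lower, near the 28.0% of all genes. ERN1, the IRE1 that splices XBP1, was lower at day 4 (-0.92 ± 0.10, adjusted p = 3.339e-07), not called at day 6 (0.10) and higher in MOLM-13 cells (1.56 ± 0.10, adjusted p = 1.231e-10), and the effect differed between lines (1.46, adjusted p = 8.633e-08). Against the vehicle arrays of days 2 and 6 the day 4 change of ERN1 was -0.02, since its day 4 vehicle level was 0.90 higher than theirs. ATF6 was higher at days 2, 4 and 6 of MV4-11 cells (0.31, 0.63 and 0.82, adjusted p = 0.01129, 1.543e-06 and 2.245e-08) and lower in MOLM-13 cells (-0.52, adjusted p = 7.375e-06), a difference of -1.34 between lines (adjusted p = 7.965e-09). EIF2AK3, the PERK gene, was lower at day 4 alone (-0.63, adjusted p = 1.97e-05), and was not called against the other vehicle arrays (-0.11). XBP1 transcript was thus lower in both lines, while the transcripts of ERN1 and ATF6 moved in opposite directions at day 6 of MOLM-13 cells.

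The amino acid stress list had lower medians than the ER genes in all 4 comparisons. Of 33 such genes, which ATF4 is known to raise, 19 were lower at day 2, 31 at day 4, 27 at day 6 and 24 in MOLM-13 cells, and 0, 0, 1 and 2 were higher, with medians of -0.407, -0.98, -0.768 and -0.82. The shares lower were 57.6%, 93.9%, 81.8% and 72.7%, against 3.68%, 21.0%, 28.4% and 36.5% of all genes. ATF4 itself was lower in all 4 comparisons (-0.37, -0.54, -0.65 and -0.58). DDIT3 (CHOP), the factor that PERK signalling induces, was lower at day 4 (-2.54, adjusted p = 2.927e-08) and day 6 (-0.74, adjusted p = 0.009533) and not called in MOLM-13 cells (0.05). TRIB3 (-1.45, -4.49, -2.89 and -1.02) and CHAC1 (-1.47, -2.28, -1.40 and -3.09) were lower throughout. ASNS was lower at days 2 and 4 and in MOLM-13 cells (-0.62, -0.52 and -1.52) and not called at day 6 (-0.28, adjusted p = 0.06733). SLC7A11 was lower at days 2 and 4 (-1.23 and -3.15) and not called at day 6 (-0.25) or in MOLM-13 cells (-0.03). At day 4 against the other vehicle arrays 29 of the 33 were lower (28.0% of all genes were), with a median of -0.737. There DDIT3 was at -0.81, TRIB3 at -2.63, CHAC1 at -1.20, SLC7A11 at -1.34, ATF4 at -0.32 and ASNS at -0.27. All of these were called lower, by less than against the day 4 vehicle arrays. The day 4 vehicle levels of DDIT3, TRIB3 and SLC7A11 stood 1.73, 1.86 and 1.81 above those of the other vehicle arrays. Of 21 chaperones of the cytosol and mitochondria, 14 were lower at day 4, 20 at day 6 and 20 in MOLM-13 cells (medians -0.295, -0.611 and -0.562), with 0 higher, so that 66.7%, 95.2% and 95.2% were lower. HSPH1 (-0.36, -0.67 and -0.57), DNAJB1 (-0.30, -0.39 and -0.78) and HSP90AA1 (-0.18, -0.14 and -0.13) were among them. HSPA1A and HSPA8 had no probe set of their own. In the day 4 vehicle arrays 0 of these 21 were higher and 8 lower than in the other vehicle arrays, and of the 33 amino acid stress genes 18 were higher and 1 lower, where 13.4% of all genes were higher and 15.2% lower. The lists differ in size and members, and no test between them was made.

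**Figure D3:**
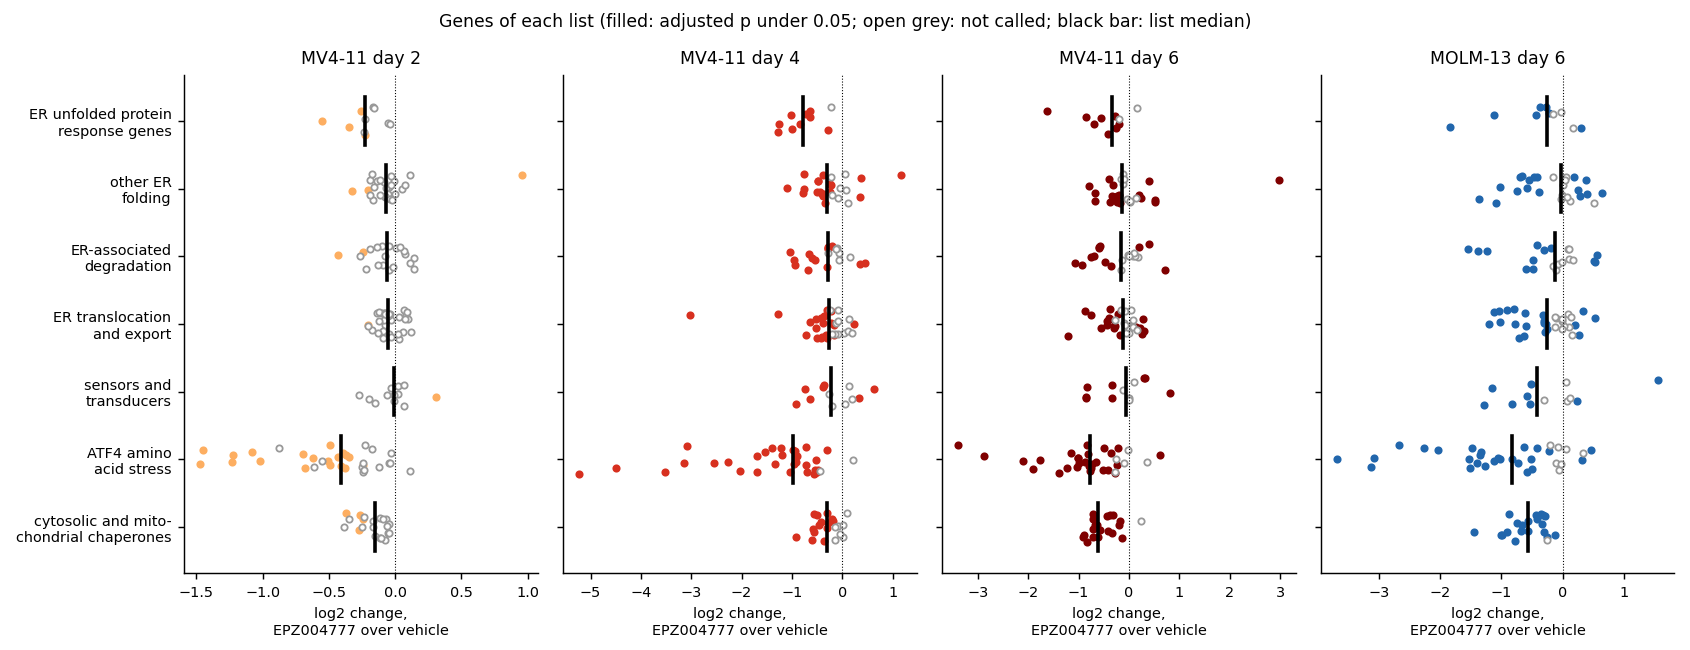
Change (log2, EPZ004777 over vehicle) of every tested gene of the 10 ER unfolded protein response genes and of 6 other lists, in 1 panel per comparison with its own horizontal scale; filled points have an adjusted p under 0.05 and the black bar is the list's median. The 10 genes have medians of -0.225, -0.777, -0.348 and -0.25, and the amino acid stress list has the lowest median in each panel (-0.407 to -0.98).

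In 7 of the 10 genes more than 1 probe set was measured (p adjusted over all probe sets). For all of these but XBP1 the choice of probe set changed the direction or call of a result in the 4 treatment comparisons. The second HSPA5 probe set, 230031_at, gave 0.10, 0.09 and 0.91 at days 2, 4 and 6 (adjusted p = 3.92e-07 at day 6) and 0.19 in MOLM-13 cells, where 211936_at gave falls. The third CALR probe set, 200935_at, gave -0.68 at day 4 (adjusted p = 3.977e-04), -0.93 at day 6 (adjusted p = 7.717e-06) and -1.21 in MOLM-13 cells (adjusted p = 2.4e-07). The other CALR probe set, 214315_x_at, gave -0.31, 0.25 and -0.14 in these comparisons, near the values of 212953_x_at. The second XBP1 probe set, 242021_at, was lower in all 4 comparisons as 200670_at was (-0.78, -1.11, -0.96 and -0.90, adjusted p = 6.804e-04 to 0.03705). DNAJB9 was lower at day 4 and in MOLM-13 cells by all 3 of its probe sets (day 4 changes of -1.25, -2.17 and -1.37, MOLM-13 changes of -1.13, -1.23 and -1.70). For DNAJB9 at day 6, 1554462_a_at gave -0.81 (adjusted p = 0.002242), while 202842_s_at gave no call. PDIA4 and HERPUD1 by their second probe sets were at -1.0 and -1.19 at day 4 but at 0.09 and 0.12 in MOLM-13 cells. Which transcripts each probe set reads was not tested.

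**Figure D4:**
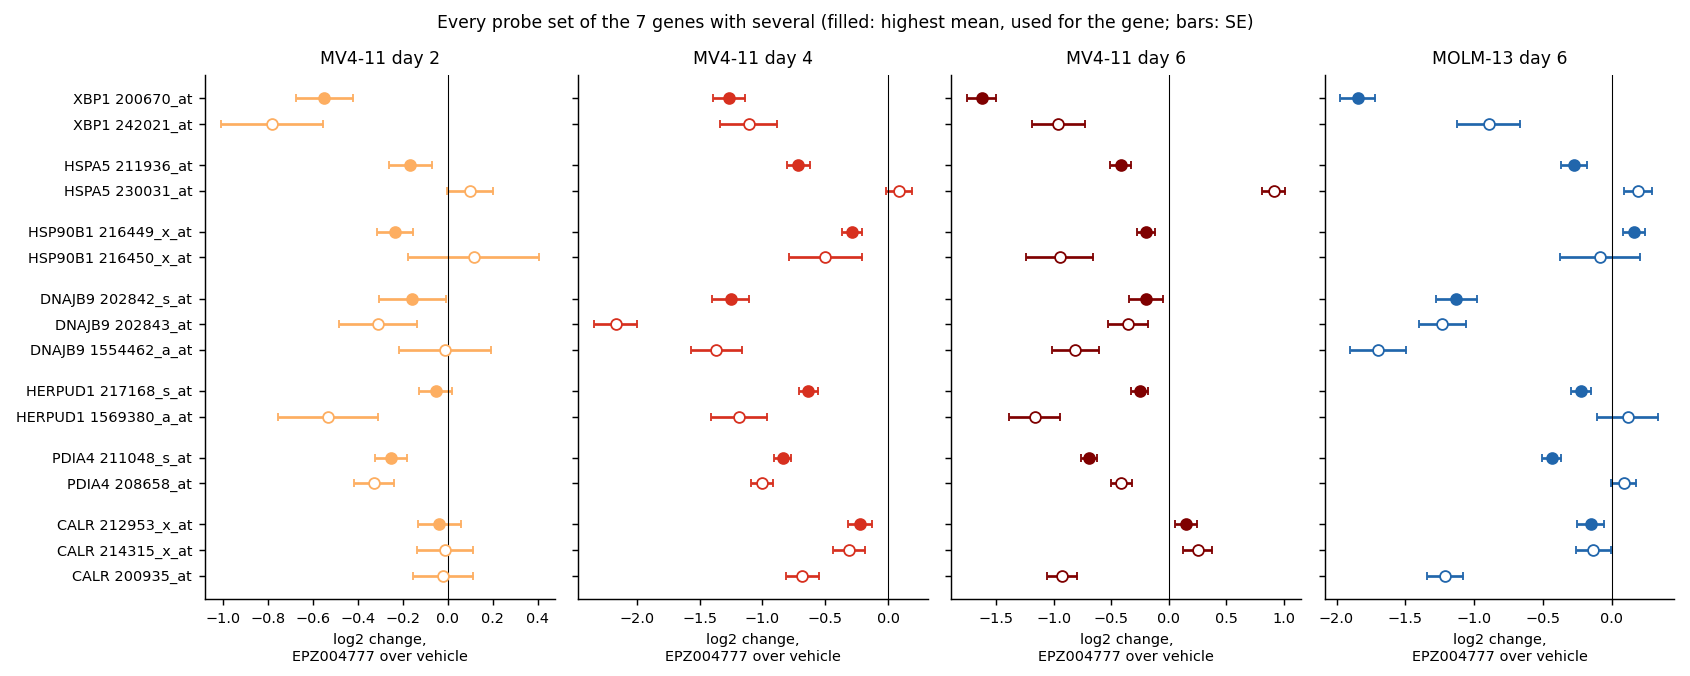
Change (log2, EPZ004777 over vehicle, bars for the SE) by each probe set of the 7 genes with several, with the probe set used for the gene filled, in 1 panel per comparison with its own horizontal scale. At day 6 of MV4-11 cells the 2 HSPA5 probe sets stand at -0.42 and 0.91 and CALR 200935_at at -0.93, while both XBP1 probe sets lie below 0 in every panel.

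The genes most like the 10 across the 8 groups were found by the correlation of group means with the mean profile of the 10, each centred on its own mean. That profile was 0.462 in day 4 vehicle MV4-11 cultures, its highest point, and -0.381 in treated MOLM-13 cultures, its lowest. The closest genes were ALDOA, a glycolytic enzyme (r = 0.987), MORF4L2, a chromatin protein (0.978), LONP1, a mitochondrial protease (0.976), BAG3, a cytosolic co-chaperone (0.972), and the transcription factors JUNB and EGR1 (0.965 each). The most opposite was RELL1 (-0.988). Of these, LONP1 changed by -0.342, -0.891, -0.465 and -0.32 and EGR1 by -1.44, -5.56, -4.82 and -4.65 at days 2, 4 and 6 and in MOLM-13 cells. Within the 10, PDIA4 followed the mean of the other 9 most closely (r = 0.988 over 8 group means), followed by HSPA5 (0.911), HYOU1 (0.865) and XBP1 (0.851). DNAJB9 (0.424) and MANF (0.535) followed it less, and CALR ran against it (-0.367). These are descriptions over 8 points that share the normalization and the line and day of each group.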

How the data were processed

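RNA of 24 cultures was hybridised to Affymetrix arrays of 54675 probe sets, 1 array a culture. The authors deposited linear intensity values made with GCRMA, per the submitters' processing notes, a method that adjusts background by probe sequence, quantile normalizes and summarizes. The GCRMA version is not given. The log2 of each deposited intensity was taken (pseudocount 0, range 2.19 to 16.1), since the values were linear where log2 had been assumed. Probe sets named 1 gene in 41091 cases, several in 1801 and no gene in 11783, and tests omitted 62 controls. Entrez IDs matched 41037 of the 41091 to RefSeq (GRCh38.p14). Genes with log2 of at least 4 in at least 3 arrays were kept, 10971 of 19775, each read by its probe set of highest mean. Group means were fitted over 24 arrays with limma 3.58.1 in R 4.3.3 (eBayes, two-sided, Benjamini-Hochberg over 10971 genes), and the steps were tested on simulated data. An exact test of 3 against 3 arrays cannot go below a p of 0.1. The number of arrays limits the precision. Nothing says that the replicates came from separate starts of culture, so p-values measure the spread between these arrays, which may be technical. The alternatives dropped the filter or set it at log2 6, fitted only the arrays compared, used a trend and robust prior, the mean of probe sets, the second probe set or every probe set, quantile normalized again, set a common median, and added a replicate block, the 3' to 5' difference as a covariate, other vehicle arrays for day 4, and each array left out. All 10 genes are named in every comparison, and genes of the other lists were named for their roles. The members and lists were chosen with earlier results of these data known. Promoters came from RefSeq's table. Tables and figures were made in Python 3.11.15 (numpy 2.4.6, pandas 2.3.3, matplotlib 3.10.9).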

Additional observations from a re-analysis of the deposited data

Results flagged for a closer look

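The treatment effect on 8 of the genes differed between days 2 and 4 of MV4-11 cells by a test of the difference itself, day 4 minus day 2: XBP1 by -0.72, HSPA5 by -0.55, DNAJB9 by -1.10, SDF2L1 by -0.65, HERPUD1 by -0.58, PDIA4 by -0.58, HYOU1 by -0.42 and MANF by -0.79 on the log2 scale. Of all genes 7.77% became lower and 7.22% higher between these days. Between days 4 and 6 the treatment effect differed for 5 genes, day 6 minus day 4. They were DNAJB9 (1.06), HERPUD1 (0.38), CALR (0.37), HYOU1 (0.37) and MANF (0.46), where 13.9% of all genes became higher and 11.9% lower. The day 4 vehicle arrays enter both differences. In them 6 of the 10 genes were higher than in the other vehicle arrays (13.4% of all genes were), DNAJB9 most, by 0.88. Between treated cultures alone the day 4 minus day 2 change was called lower for 7 genes, where 20.0% of all genes were. The day 6 minus day 4 change was called for 3 of 10, near the 23.9% of all genes called.

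At day 6 the effect differed between lines, MOLM-13 minus MV4-11, for HSP90B1 by 0.36, DNAJB9 by -0.93, SDF2L1 by 0.48, PDIA4 by 0.26 and MANF by 0.87. These 5 of 10 are near the share of all genes that differed (52.0%), of which 19.4% were higher and 32.7% lower. The 3' to 5' difference was higher in the treated than in the vehicle MOLM-13 arrays. Its part in these differences was not tested beyond the fit with it as a covariate. That fit called 4 of the 10 genes higher and 2 lower, and its share of all genes is not given here.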

How the results depend on the processing

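XBP1, and MANF in both lines, kept their direction and call under all alternatives and each array left out. Of the 10 genes in 4 comparisons, 397 values under other alternatives kept direction and call, 18 lost and 17 gained a call, and 18 turned direction. The replicate numbers did not pair the samples (correlations of same-numbered arrays -0.26 to 0.10), and with the replicate number as a block the counts of genes called among the 10 were 4, 9, 8 and 7, as without it, and 1295, 4973, 6750 and 7156 among all genes. The second probe set turned HSPA5 (0.10, 0.09, 0.91 and 0.19 at days 2, 4 and 6 and in MOLM-13 cells), HSP90B1 (0.11 at day 2, -0.09 in MOLM-13 cells), HERPUD1 (0.12) and PDIA4 (0.09) in MOLM-13 cells, and left 4 genes called there and 5 between days 2 and 4. The mean of probe sets turned HSPA5 (0.25) and CALR (-0.17) at day 6 and called 8 genes between lines. The 3' to 5' covariate turned DNAJB9 (0.04) and CALR (-0.01) at day 6 and HSPA5 (0.05), HERPUD1 (0.01) and HYOU1 (0.09) in MOLM-13 cells, left 5 genes called at day 6, and 4339 of all genes in MOLM-13 cells and 1497 between days 4 and 6. Quantile normalization again turned CALR (0.01) and HYOU1 (0.09), and a common median HYOU1 (0.06), all in MOLM-13 cells. Only the arrays compared left 5 genes called at day 6. Between days 4 and 6, 3 genes were called with no filter, with only the arrays compared, with a common median and in treated cultures alone, where 4241 of all genes were called between days 2 and 4. The causes were not tested. With 1 array left out, genes called among the 10 ran 2 to 4 at day 2, 9 to 10 at day 4, 7 to 8 at day 6, 5 to 8 in MOLM-13 cells, 7 to 8, 3 to 5 and 4 to 6 for the differences between days 2 and 4, days 4 and 6 and lines, 5 to 6 for the day 4 vehicle, 5 to 6 over treated days and 4 to 4 between vehicle lines. Among all genes the ranges were 909 to 981, 4453 to 4703, 6265 to 6581, 6647 to 7000, 1295 to 1506, 2108 to 3164, 5274 to 6193, 1873 to 3035, 5522 to 5941 and 6502 to 6626. HYOU1 in MOLM-13 cells was 0.04 without treated replicate 2 (range -0.08 to 0.04).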

Other observations

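Beyond the 10 genes, 22 tested genes held ERSE or ERSE-II in the same promoter windows, of 29 among the 9031 tested genes with a promoter (0.321%). This set was drawn up after the values were seen. Of the 22, 8 were lower and 4 higher at day 4 of MV4-11 cells (median -0.051), where 21.0% of all genes were lower, and 7 were lower and 7 higher at day 6 (median -0.13), where 28.4% and 33.6% of all genes were. In MOLM-13 cells 7 were lower and 6 higher (median 0.0207), where 36.5% and 29.3% were. The counts of both day 6 comparisons are thus near the shares of all genes, while the share lower at day 4 was above that of all genes. Against the vehicle arrays of days 2 and 6, 10 of the 22 were lower and 4 higher at day 4, where 28.0% and 29.1% of all genes were. FICD, an enzyme that switches HSPA5 off by AMPylation and was chosen here after its values were seen, was lower at day 4 (-1.70 ± 0.17, adjusted p = 8.875e-08) and higher in MOLM-13 cells (0.73 ± 0.17, adjusted p = 7.942e-04). Its day 4 vehicle arrays stood 1.25 above the other vehicle arrays, and against those the day 4 change of FICD was -0.45. CARE was in 10.4% of 48 promoters of the amino acid stress list and in 0.558% of promoters of tested genes, and ERSE in 0 of those 48. That list was made of genes that ATF4 is known to raise, so a higher share of CARE was built into the choice.

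PRDM1, a regulator of plasma cell differentiation that acts with XBP1 in that lineage, had a higher mean in treated than in vehicle MV4-11 cultures on each day, at 6.22 and 4.40 on day 2, 7.72 and 5.09 on day 4, and 8.53 and 4.43 on day 6, while XBP1 was lower. IRF4 averaged 8.55 in treated and 8.41 in vehicle cultures on day 6. The plasma cell markers SDC1, TNFRSF17, MZB1, JCHAIN and IGHM averaged at most 4.15 in any group. In MOLM-13 cells, where XBP1 was lower too, PRDM1 averaged 4.03 in treated and 3.29 in vehicle cultures. A link between PRDM1 and XBP1 in these cultures was not tested.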
